A study of Mus musculus with 12 samples.

Results

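The genes described here encode carriers that move bicarbonate, chloride, sodium, potassium, calcium, sulfate, phosphate or protons across cell membranes, and their RNA was measured in 2 kinds of supporting cell of the adult mouse cochlea, pillar cells and Deiters' cells. They were chosen by symbol alone, as the genes named Slc4a, Slc8a, Slc9a, Slc12a, Slc13a, Slc20a, Slc24a, Slc26a or Slc34a with a further digit, which took 61 of the 48440 features of the deposited table. The symbols also bring in 3 binding proteins named after a transporter (Slc9a3r1, Slc9a3r2 and Slc4a1ap) and 1 noncoding transcript on the opposite strand (Slc13a2os). RNA came from CBA/J mice aged 28 to 32 days, in 3 libraries of pillar cells and 3 libraries of Deiters' cells, each made from about 1000 cells that were recognised by their shape and drawn one at a time into a suction pipette. Neither cell type carried a transgene or received a treatment. Each library was sequenced in 2 lanes, whose values were averaged, so that a cell type has 3 values for a gene. Values are RPKM, the reads of a gene scaled to the length of its transcript and to all mapped reads of the lane.

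Pillar cells and Deiters' cells are supporting cells of the organ of Corti. Pillar cells frame the tunnel between the inner and outer hair cells, and each Deiters' cell holds the base of an outer hair cell. Hair cells release potassium when they are stimulated by sound. Supporting cells take up part of it, together with chloride, through potassium-chloride cotransporters of the Slc12 family, while sodium-proton exchangers and bicarbonate carriers hold the pH of the cell and of the fluids around it. A pair of relatives in the Slc26 family are known from hearing: prestin (Slc26a5), the motor protein of outer hair cells, and pendrin (Slc26a4), a chloride-bicarbonate exchanger of the epithelium beside the organ of Corti whose loss causes deafness with enlarged fluid spaces.

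Promoters of 4 of these genes are shown, those of prestin and Slc24a3, both called higher in pillar cells at high levels, and those of pendrin and Slc9a3r1, which were among the most abundant. Each run is the 250 bases before the RefSeq start site in the build GRCm38.p6, on the strand of the gene. Capitals mark matches, on either strand, to TATAAA, known as the TATA box, GGGCGG, known as the GC box, AGATAA, known as a GATA motif, or CACGTG, known as an E-box. The first belongs to prestin at chr5:21865605-21865854 on the minus strand, the second to pendrin at chr12:31559985-31560234 on the minus strand, the third to Slc24a3, the first of its 2 start sites, at chr2:145167525-145167774 on the plus strand and the fourth to Slc9a3r1 at chr11:115163091-115163340 on the plus strand.
Slc26a5: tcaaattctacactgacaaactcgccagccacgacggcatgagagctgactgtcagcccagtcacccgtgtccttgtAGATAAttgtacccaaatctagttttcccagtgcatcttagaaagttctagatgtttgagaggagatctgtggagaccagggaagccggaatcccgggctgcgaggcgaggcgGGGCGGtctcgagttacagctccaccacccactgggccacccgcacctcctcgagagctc
Slc26a4: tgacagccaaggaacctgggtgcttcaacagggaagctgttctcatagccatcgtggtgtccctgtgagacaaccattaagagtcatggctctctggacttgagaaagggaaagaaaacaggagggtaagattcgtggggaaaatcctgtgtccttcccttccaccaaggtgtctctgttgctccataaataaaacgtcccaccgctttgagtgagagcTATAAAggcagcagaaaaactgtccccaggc
Slc24a3: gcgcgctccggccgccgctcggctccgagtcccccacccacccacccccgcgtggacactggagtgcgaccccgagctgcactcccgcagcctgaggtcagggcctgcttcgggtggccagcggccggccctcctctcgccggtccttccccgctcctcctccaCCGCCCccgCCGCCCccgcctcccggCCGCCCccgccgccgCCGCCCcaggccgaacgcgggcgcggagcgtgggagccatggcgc
Slc9a3r1: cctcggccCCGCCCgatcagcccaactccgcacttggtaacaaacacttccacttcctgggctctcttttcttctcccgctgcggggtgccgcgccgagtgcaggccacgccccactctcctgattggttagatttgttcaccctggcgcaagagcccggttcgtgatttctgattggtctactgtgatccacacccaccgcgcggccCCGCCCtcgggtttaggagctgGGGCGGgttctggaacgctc

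The pendrin promoter held a TATA box that began 31 bases before the start site and no GC box, whereas the prestin promoter held 1 GC box, 60 bases before its start, and 1 GATA motif, 173 bases before it. At its first start site Slc24a3 had 4 GC boxes and a GC content of 80.8%, against a median of 52.4% over all promoters. The window of its second start site, which is not shown, had no GC box and a GC content of 63.6%. Slc9a3r1 had 3 GC boxes. No E-box lay in the 4 windows shown, and no 2 matches overlapped. Of the 61 genes, 47 had at least 1 promoter in the RefSeq table, which covers 27025 genes. GGGCGG was found for 23 of the 47 genes (48.9%, against 35.4% of all genes in the table), TATAAA for 11 (23.4%, against 14.3%), AGATAA for 10 (21.3%, against 11.4%) and CACGTG for 8 (17.0%, against 6.86%). These shares describe letters and do not show that a factor binds there.

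The reads behind the RPKM values, worked out from the steps between these values, came to 18641354 to 21557584 per library. The paper gives a larger number of sequenced reads per sample, and the difference was not examined. By this estimate 1 read in 1 kb of transcript was worth about 0.052 RPKM. In a principal component analysis of the lanes' deviations from their cell type mean, the first component held 83.7% of the variance. Its sign parted the 12 lanes into 2 sets that did not follow the libraries or the lane numbers. In pillar libraries 1 and 3 and in Deiters' libraries 1 and 2, the 2 lanes of the same library fell into different sets. Lanes were joined into libraries by their labels, and the cause of this split was not tested. The standard errors, the overlaps and the count of 3 libraries per cell type rest on these labels. In the 18 transporter genes above 5 RPKM in either cell type the lanes of a library differed by at most 1.21 times, except for 1.40 times in Slc12a4, and either set alone gave 13 genes called higher in pillar cells with 6 higher in Deiters' cells, against 13 and 8 in both sets together. Over all genes, set 1 gave 2306 and 2056 of 16973 tested, and set 2 gave 2379 and 2271 of 17166.

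Of the 61 genes, 44 averaged more than 0.1 RPKM in at least 1 of the cell types and were tested, and 30 averaged more than 1 RPKM. A gene was called when its adjusted p in limma was 0.01 or lower and it differed 2-fold or more on the scale of log2(RPKM + 0.1), pillar minus Deiters'. By this rule 21 of the 44 genes were called (47.7%), beside 28.7% of the 17188 genes tested in the whole table. Of the 44, 13 were higher in pillar cells (29.5%, with 14.7% of all genes tested) and 8 were higher in Deiters' cells (18.2%, with 14.0% of all genes tested). The same shares of all genes tested belong beside the counts called in families and lists below. Differences are given on this log2 scale with their standard error. The median difference of the 44 genes was 0.44, and that of all genes tested was 0.00. A further 12 genes passed the p threshold with a difference under 2-fold, 8 of them higher in pillar cells. The 3 libraries of the cell types did not overlap in 38 of the 44 genes (86.4%), a state that 76.5% of all genes tested shared. In bulk samples such as these, fewer cells of a type and less RNA per cell cannot be told apart.

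**Figure D1:**
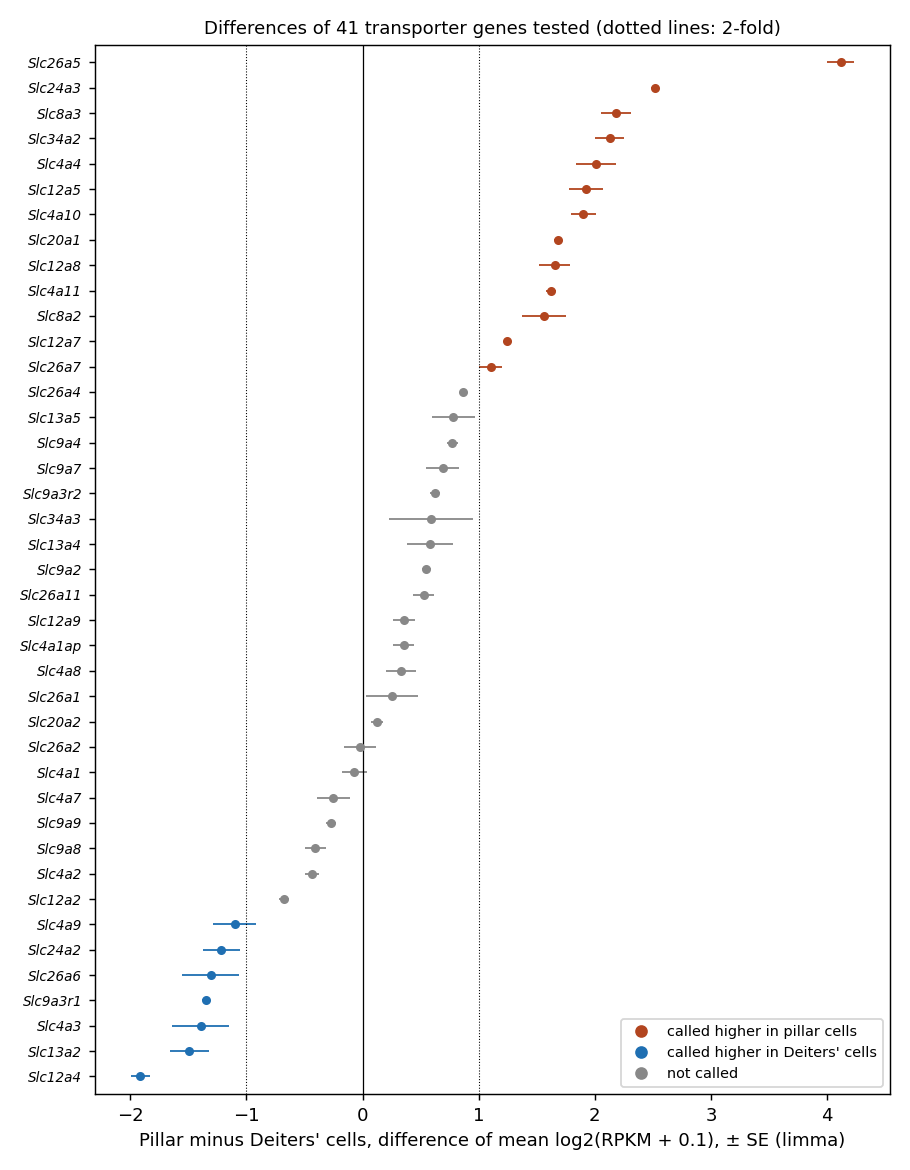
Difference between pillar and Deiters' cells of 41 of the 44 transporter genes tested, on the scale of log2(RPKM + 0.1), as points with their standard error from limma. Prestin (Slc26a5) stands alone at the top with 4.12, 13 genes are called on the pillar side and 7 on the Deiters' side, where Slc12a4 has the lowest value at -1.91.

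The same 3 genes led in both cell types. The potassium-chloride cotransporter Slc12a7 was the most abundant in pillar cells and ranked 122 of all features there, and the scaffold Slc9a3r1 was the most abundant in Deiters' cells and ranked 138 of all features there. Pendrin came after them in both. The values of the libraries lay close together: for the 15 genes above 5 RPKM in both cell types, the median coefficient of variation was 3.57% between pillar libraries and 2.81% between Deiters' libraries. Each value is a mean of 2 lanes. The spread between the lanes of a library enters these figures and the standard errors only as far as it moves that mean.

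**Figure D2:**
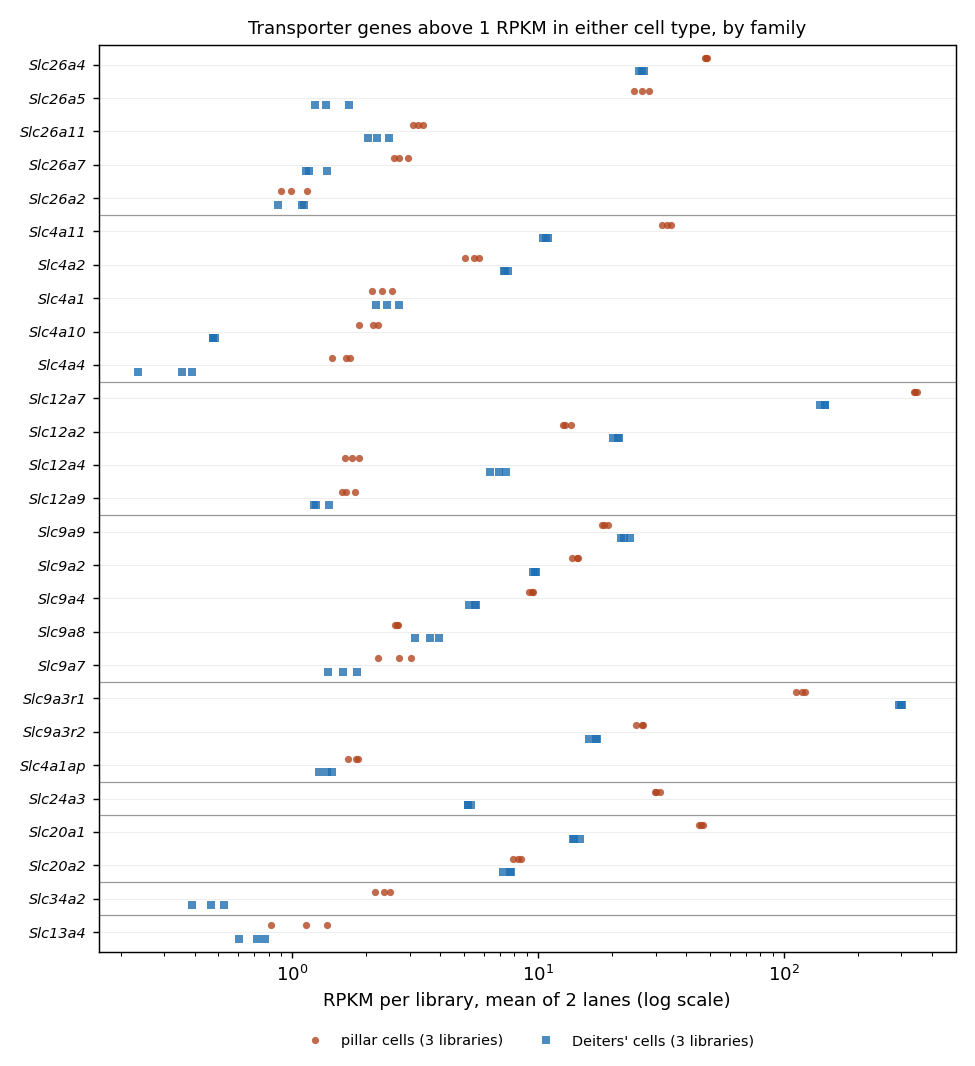
RPKM in each of the 3 pillar libraries (circles, upper) and the 3 Deiters' libraries (squares, lower) for 27 of the 30 genes that average more than 1 RPKM, on a log axis, with lines between the families. Libraries of a cell type cluster tightly, and the gap between the cell types is widest for Slc26a5, where pillar libraries lie at 24.6 to 28.1 RPKM and Deiters' libraries at 1.23 to 1.69 RPKM.

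Prestin was called higher in pillar cells. Slc26a5 (chr5:21810655-21865604, minus strand, in GENCODE M21 on GRCm38) had 24.6, 26.4 and 28.1 RPKM in the pillar libraries and 1.37, 1.23 and 1.69 RPKM in the Deiters' libraries. These values stand for 1525, 1552 and 1656 reads in pillar libraries and for 91, 73 and 97 reads in Deiters' libraries, and no library held fewer than 73. The mean was 18.4-fold higher in pillar cells, a log2 difference of 4.12 ± 0.12 (SE, n = 3 each; limma adjusted p = 6.2e-07), with no overlap between the cell types.

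RNA of other hair cell genes moved with prestin. Of 12 hair cell markers 10 were called higher in pillar cells while none was higher in Deiters' cells, and the ratio of the mean RPKM (pillar over Deiters') ran from 0.939 for Ikzf2 to 24.2 for Chrna9, a range that includes the ratio of prestin. Summed over the 12 markers, the level was 699 to 740 RPKM in pillar libraries and 114 to 120 RPKM in Deiters' libraries, and no marker was listed at 0. Otof, which encodes otoferlin of the hair cell synapse, had 37.9, 38.0 and 38.4 RPKM in pillar libraries and 3.47, 3.31 and 3.35 RPKM in Deiters' libraries (log2 difference 3.46 ± 0.04). Lhfpl5, a part of the transduction channel complex, had 277, 263 and 274 RPKM in pillar libraries and 12.4, 12.5 and 11.4 RPKM in Deiters' libraries (log2 difference 4.47 ± 0.04). Tmc1, another part of that complex, and Chrna9, a subunit of the acetylcholine receptor of hair cells, had log2 differences of 4.26 ± 0.06 and 4.42 ± 0.07. These 4 markers had limma adjusted p-values of 2.5e-08, 2.3e-08, 7e-08 and 8.6e-08. Ikzf2, a transcription factor of outer hair cells, was not called at -0.08 ± 0.09 (limma adjusted p = 0.42). The part of hair cell RNA in the prestin values was not tested.

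**Figure D3:**
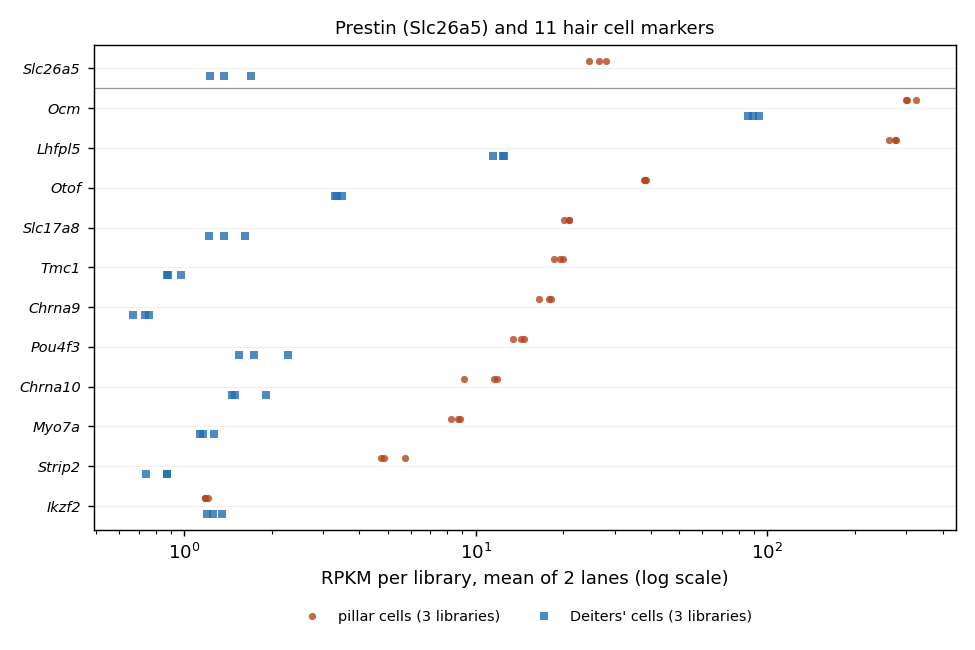
RPKM of prestin (top row) and of 11 of the 12 hair cell markers in each pillar library (circles, upper) and each Deiters' library (squares, lower), on a log axis. Prestin and Slc17a8 differ by 18.4-fold and 14.7-fold, Ocm lies high in both cell types at 299 to 325 RPKM in pillar libraries and 85.9 to 93.5 RPKM in Deiters' libraries, and Ikzf2 lies at 1.19 to 1.21 RPKM in pillar libraries and 1.20 to 1.35 RPKM in Deiters' libraries.

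Pendrin was well expressed in both cell types. Slc26a4 (chr12:31519827-31559969, minus strand) had 48.4, 47.6 and 48.3 RPKM in pillar libraries and 26.4, 25.8 and 26.9 RPKM in Deiters' libraries. Every pillar library lay above every Deiters' library, and the mean was 1.83-fold higher in pillar cells, a log2 difference of 0.87 ± 0.03 (SE, n = 3 each; limma adjusted p = 9.7e-07). The difference is under 2-fold, so the gene was not called. Markers of the outer sulcus and of Hensen and Claudius cells, the neighbouring epithelium where pendrin is known from the mouse, were mostly higher in Deiters' cells. Of the 6 markers none was called higher in pillar cells and 4 were called higher in Deiters' cells, and their summed level was 140 to 144 RPKM in pillar libraries and 468 to 479 RPKM in Deiters' libraries. Gata2, a transcription factor, had 17.9, 17.7 and 17.9 RPKM in pillar libraries and 82.3, 81.7 and 82.0 RPKM in Deiters' libraries, a log2 difference of -2.20 ± 0.02 (limma adjusted p = 2.8e-08). Aqp4, a water channel, had a log2 difference of -2.23 ± 0.03, and Bmp4, a signalling ligand, of -2.50 ± 0.04 (limma adjusted p = 3.9e-08 and 7.4e-08). The fourth was Fst, the inhibitor follistatin, at -2.15 ± 0.08 (limma adjusted p = 2e-06). Lmx1a, a transcription factor, went the way of pendrin under 2-fold, with means of 1.97 RPKM in pillar cells against 1.55 RPKM in Deiters' cells and a log2 difference of 0.33 ± 0.08 (limma adjusted p = 0.0082).

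The other Slc26 genes, which carry sulfate, chloride, bicarbonate or oxalate, were low. Slc26a7, a chloride and anion carrier, had 2.60, 2.94 and 2.71 RPKM in pillar libraries and 1.17, 1.14 and 1.38 RPKM in Deiters' libraries. The cell types did not overlap, and the log2 difference was 1.10 ± 0.10 (SE, n = 3 each; limma adjusted p = 9.8e-05), close to the threshold of 2-fold. With the median gene of every library brought to one level, all differences moved by -0.12 at the median and Slc26a7 fell just below the threshold at 0.98. Slc26a6, a chloride-bicarbonate and oxalate exchanger, was also low and was called higher in Deiters' cells, with 0.119, 0.029 and 0.106 RPKM in pillar libraries and 0.291, 0.393 and 0.357 RPKM in Deiters' libraries. Slc26a6 had 3 to 13 reads per pillar library and 34 to 41 per Deiters' library, and without Deiters' library 2 it was no longer called (limma adjusted p = 0.012). Slc26a11 passed the p threshold under 2-fold at 0.53 ± 0.09 (limma adjusted p = 0.0018), with means of 3.25 and 2.24 RPKM in pillar and Deiters' cells. Slc26a1 and Slc26a2, both sulfate carriers, did not pass, and Slc26a3 and Slc26a9 were listed at 0 in every library. Slc26a8 and Slc26a10 were not tested, with means of 0 and 0.023 RPKM in pillar cells against 0.090 and 0.030 RPKM in Deiters' cells.

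The potassium-chloride cotransporters split between the cell types. Slc12a7 (KCC4), whose loss causes deafness in mice, had 337, 346 and 341 RPKM in pillar libraries and 146, 139 and 147 RPKM in Deiters' libraries. Every pillar library lay above every Deiters' library, and the mean was 2.37-fold higher in pillar cells, a log2 difference of 1.24 ± 0.03 (SE, n = 3 each; limma adjusted p = 3.1e-07). Slc12a7 lies at chr13:73733094-73816754 on the plus strand.

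Slc12a4 (KCC1), the widely expressed member that takes part in cell volume control, went the other way. It had 1.75, 1.86 and 1.64 RPKM in pillar libraries and 6.90, 6.35 and 7.38 RPKM in Deiters' libraries, without overlap. The mean was 3.93-fold higher in Deiters' cells, a log2 difference of -1.91 ± 0.08 (SE, n = 3 each; limma adjusted p = 3.3e-06).

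Slc12a5 (KCC2), the cotransporter of neurons, was called higher in pillar cells at a low level, with 47, 43 and 39 reads in pillar libraries and 1, 1 and 0 reads in Deiters' libraries. Within the family Slc12a7 held 93.1% of the RPKM in pillar cells, against 79.4% in Deiters' cells.

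Slc12a2 (NKCC1), the sodium-potassium-chloride cotransporter that loads the stria vascularis with potassium and whose loss causes deafness in mice, had 12.6, 12.9 and 13.6 RPKM in pillar libraries and 20.2, 21.1 and 21.3 RPKM in Deiters' libraries. Every Deiters' library lay above every pillar library, and the log2 difference was -0.68 ± 0.04 (SE, n = 3 each; limma adjusted p = 1.7e-05), which is under 2-fold and was not called. Its relatives of the kidney, Slc12a1 and Slc12a3, were listed at 0 in all libraries. Slc12a8 was called higher in pillar cells with means of 0.629 and 0.132 RPKM in pillar and Deiters' cells, and Slc12a9 did not pass the p threshold at 0.36 ± 0.10 (limma adjusted p = 0.014).

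The kinases that switch these cotransporters mostly differed by less than 2-fold. WNK kinases activate the kinases SPAK (Stk39) and OSR1 (Oxsr1), which in turn activate Slc12a2 and inhibit the potassium-chloride cotransporters. Of 13 genes of this pathway 12 were tested, none was called higher in pillar cells while 1 was called higher in Deiters' cells, with a median log2 difference of -0.35. That gene was Wnk4, with 3.26, 3.37 and 2.98 RPKM in pillar libraries and 12.9, 12.9 and 13.5 RPKM in Deiters' libraries (log2 difference -2.00 ± 0.06; limma adjusted p = 7.6e-07). Stk39 differed in the same direction under 2-fold, with 36.0, 35.0 and 35.3 RPKM in pillar libraries and 65.0, 65.7 and 69.2 RPKM in Deiters' libraries (log2 difference -0.91 ± 0.03; limma adjusted p = 1.6e-06). Klhl3, an adaptor that marks WNK kinases for degradation, was listed at 0 throughout.

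**Figure D4:**
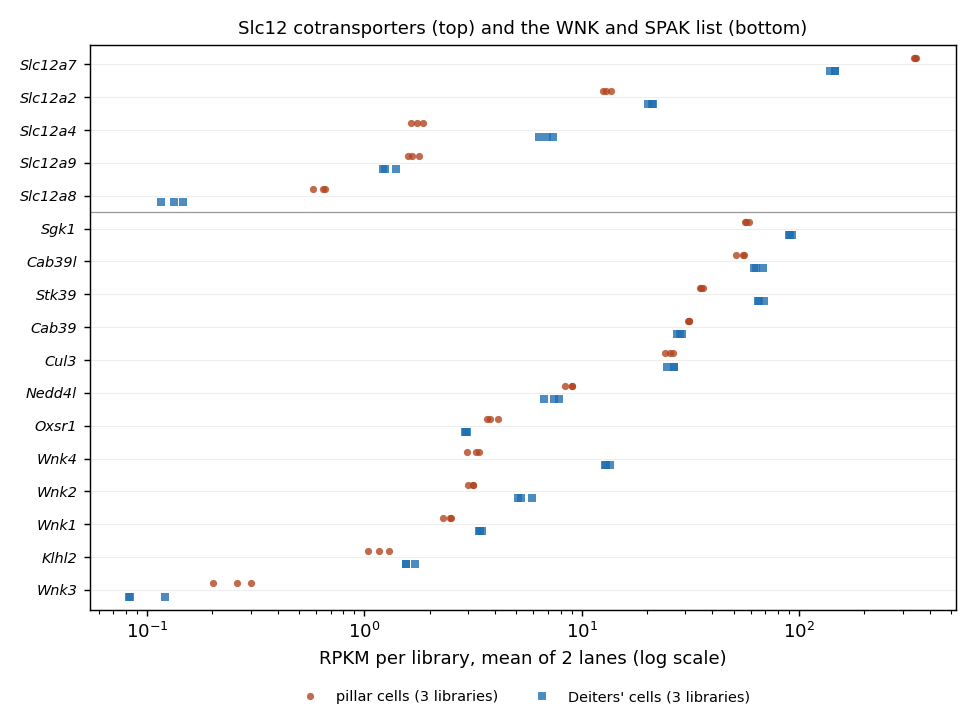
RPKM of Slc12 genes (top block) and of the WNK and SPAK list (bottom block) in each pillar library (circles, upper) and each Deiters' library (squares, lower), on a log axis; genes listed at 0 in a library are left out. Slc12a7 lies to the right of the other cotransporters in both cell types, and Slc12a4, Slc12a2, Wnk4 and Stk39 have their Deiters' libraries to the right of their pillar libraries.

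Channels and pumps that share the potassium and chloride route with the cotransporters formed a list of 11, of which 10 were tested, 2 were higher in pillar cells while none was higher in Deiters' cells, with a median log2 difference of 0.10. The 2 were Bsnd (barttin), the subunit of kidney and cochlear chloride channels, at 2.97 ± 0.12, and Kcne1, the subunit of the potassium channel of stria marginal cells, at 1.95 ± 0.17 (limma adjusted p = 3.1e-06 and 7.6e-05). Bsnd had 2.16, 2.66 and 2.38 RPKM in pillar libraries and 0.236, 0.226 and 0.195 RPKM in Deiters' libraries. Both are also among the 4 markers of marginal cells of the stria, 3 of which were called higher in pillar cells, with sums of 8.40 to 8.95 RPKM in pillar libraries and 3.87 to 4.32 RPKM in Deiters' libraries. The fourth, Kcnq1, the potassium channel that Kcne1 joins, leaned to Deiters' cells under 2-fold, with means of 2.03 RPKM in pillar cells against 2.80 RPKM in Deiters' cells and a log2 difference of -0.45 ± 0.09 (limma adjusted p = 0.0044). Whether such cells have a part in the values of Slc12a2 or of these channels was not tested.

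In the Slc4 family, which carries bicarbonate, the sodium-coupled carriers that were called stood higher in pillar cells. Slc4a10 (NCBE), which imports sodium and bicarbonate, had 2.23, 1.86 and 2.12 RPKM in pillar libraries and 0.484, 0.477 and 0.476 RPKM in Deiters' libraries, without overlap. Its log2 difference was 1.90 ± 0.11 (SE, n = 3 each; limma adjusted p = 9.9e-06). Slc4a4 (NBCe1), the electrogenic sodium-bicarbonate cotransporter, had 1.65, 1.44 and 1.72 RPKM in pillar libraries and 0.356, 0.235 and 0.392 RPKM in Deiters' libraries. Its cell types did not overlap either, and the log2 difference was 2.01 ± 0.17 (SE, n = 3 each; limma adjusted p = 7.4e-05).

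Slc4a7 (NBCn1), whose loss impairs hearing and sight in mice, had 0.871, 0.823 and 0.755 RPKM in pillar libraries and 0.841, 0.977 and 1.18 RPKM in Deiters' libraries. The cell types overlapped, and the log2 difference was -0.25 ± 0.14 (SE, n = 3 each; limma adjusted p = 0.15). Slc4a8, a sodium-driven chloride-bicarbonate exchanger of neurons, did not pass either, with a log2 difference of 0.33 ± 0.13 (limma adjusted p = 0.049). Slc4a5 had 1 read in all, in a Deiters' library.

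The highest Slc4 gene was Slc4a11, a proton and water carrier in spite of its family name, whose loss causes corneal dystrophy and hearing loss. It had 33.5, 34.6 and 31.7 RPKM in pillar libraries and 10.8, 10.5 and 11.0 RPKM in Deiters' libraries. The mean was 3.10-fold higher in pillar cells without overlap, a log2 difference of 1.62 ± 0.04 (SE, n = 3 each; limma adjusted p = 4.8e-07). Slc4a11 lies at chr2:130684113-130697519 on the minus strand. In the mouse cochlea its protein is known from fibrocytes, and markers of fibrocytes and bone moved with it: 2 of 5 were called higher in pillar cells while none was higher in Deiters' cells, and their sum was 2497 to 2523 RPKM in pillar libraries and 699 to 770 RPKM in Deiters' libraries. Coch (cochlin) had 703, 707 and 698 RPKM in pillar libraries and 231, 228 and 232 RPKM in Deiters' libraries, and Otos (otospiralin) averaged 1791 and 500.2 RPKM in pillar and Deiters' cells. The collagen genes Col1a1 and Col1a2 were low, at 0.752 and 2.77 RPKM in pillar cells against 0.510 and 1.43 RPKM in Deiters' cells. The part of fibrocyte RNA in the Slc4a11 values was not tested.

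Chloride-bicarbonate exchangers of the family were level or higher in Deiters' cells. Slc4a2 (AE2), which most cells express, passed the p threshold under 2-fold at -0.43 ± 0.06 (limma adjusted p = 0.00061), with means of 5.42 and 7.35 RPKM in pillar and Deiters' cells. Slc4a3 (AE3) averaged 0.156 RPKM in pillar cells against 0.566 RPKM in Deiters' cells and was called, with a log2 difference of -1.39 that became -1.34 without Deiters' library 1 and -1.28 without Deiters' library 2, both just above the p threshold. Slc4a1 (band 3), the anion exchanger of red cells, averaged 2.32 ± 0.21 RPKM in pillar cells against 2.45 ± 0.26 RPKM in Deiters' cells (SD, n = 3 each), and its log2 difference was -0.07 ± 0.11 (limma adjusted p = 0.56). RNA of red cell markers was present in both: the 6 markers summed to 4802 to 4880 RPKM in pillar libraries and 2973 to 3457 RPKM in Deiters' libraries. Of these 6, 1 was called higher in pillar cells, Alas2, the first enzyme of heme synthesis in red cells, at 1.01 ± 0.08 (limma adjusted p = 4.5e-05). The part of red cell RNA in the Slc4a1 values was not tested. Slc4a9, a less studied relative, was called higher in Deiters' cells, listed at 0 in pillar libraries and at 0.079, 0.142 and 0.128 RPKM in Deiters' libraries. Of 6 partners of these carriers, 3 were tested and 1 was called, Ahcyl2, a relative of the activator of NBCe1 named IRBIT, with 32.8, 33.6 and 33.8 RPKM in pillar libraries and 14.1, 14.5 and 15.1 RPKM in Deiters' libraries (log2 difference 1.19 ± 0.04; limma adjusted p = 7.7e-07). The median of the 3 was -0.18, and Cftr, a chloride channel, and Foxi1, the transcription factor of pendrin-expressing cells, were listed at 0.

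Sodium-proton exchangers were present in both cell types, and their sums lay close together. Summed over the Slc9 exchangers, the level was 57.4 ± 0.7 RPKM in pillar cells against 54.5 ± 1.8 RPKM in Deiters' cells (SD, n = 3 each), a ratio of 1.05 that is smaller than the shift of the median gene given above for Slc26a7.

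Among the plasma membrane exchangers, both of the following leaned to pillar cells under 2-fold: Slc9a2 had a log2 difference of 0.55 ± 0.04 and Slc9a4 of 0.77 ± 0.05 (limma adjusted p = 2.3e-05 and 1.5e-05). Slc9a9, an exchanger of endosomes and the most abundant exchanger in both cell types, had means of 18.7 and 22.5 RPKM in pillar and Deiters' cells and a log2 difference of -0.27 ± 0.04 (limma adjusted p = 0.0015). Slc9a8 also leaned to Deiters' cells and Slc9a7 to pillar cells, both under 2-fold. Slc9a3, the exchanger of gut and kidney, was listed at 0 in all libraries, and Slc9a5 was listed at 0 in pillar libraries and averaged 0.049 RPKM in Deiters' cells.

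The scaffold named after Slc9a3 was abundant although that exchanger was listed at 0. Slc9a3r1 (NHERF1), which ties membrane proteins to ezrin and actin, had 119, 121 and 112 RPKM in pillar libraries and 300, 294 and 303 RPKM in Deiters' libraries. These stand for 4126 to 4611 reads per pillar library and 10869 to 12464 reads per Deiters' library. The mean was 2.55-fold higher in Deiters' cells without overlap, a log2 difference of -1.35 ± 0.03 (SE, n = 3 each; limma adjusted p = 4.8e-07). The related scaffold Slc9a3r2 (NHERF2) leaned the other way under 2-fold, with 26.4, 24.9 and 26.7 RPKM in pillar libraries and 17.1, 16.1 and 17.4 RPKM in Deiters' libraries (log2 difference 0.62 ± 0.04; limma adjusted p = 3e-05), and Slc4a1ap had means of 1.78 and 1.37 RPKM in pillar and Deiters' cells.

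Of 9 partners of these exchangers and scaffolds all were tested, 2 were called higher in pillar cells while 1 was higher in Deiters' cells, with a median log2 difference of -0.06. Msn (moesin), a membrane-actin linker, had 3.44, 3.69 and 3.88 RPKM in pillar libraries and 0.425, 0.377 and 0.390 RPKM in Deiters' libraries (log2 difference 2.92 ± 0.09, limma adjusted p = 1.1e-06). Ezr (ezrin) and Rdx (radixin) were more abundant and leaned the other way under 2-fold. Their means were 44.0 and 25.8 RPKM in pillar cells against 80.7 and 30.7 RPKM in Deiters' cells (limma adjusted p = 2.5e-06 and 0.00071). Chp2, a cofactor of the exchangers, was listed at 0 in pillar libraries and averaged 0.124 RPKM in Deiters' cells (limma adjusted p = 0.0039). Among 6 further genes of the same superfamilies, 4 were tested and 1 was called, Slc9b2, a distant sodium-proton exchanger, with 0.640, 0.544 and 0.522 RPKM in pillar libraries and 2.04, 2.12 and 2.12 RPKM in Deiters' libraries (log2 difference -1.71 ± 0.10; limma adjusted p = 1.5e-05), and the median was 0.10.

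Of 4 tested carriers that remove calcium in exchange for sodium, 3 were called higher in pillar cells while 1 was higher in Deiters' cells. Of all genes tested, 14.7% and 14.0% were called in these directions. Slc24a3 (NCKX3), which exports calcium and potassium in exchange for sodium, had 30.2, 30.0 and 31.2 RPKM in pillar libraries and 5.33, 5.20 and 5.18 RPKM in Deiters' libraries. The mean was 5.82-fold higher in pillar cells, with no overlap, a log2 difference of 2.52 ± 0.03 (SE, n = 3 each; limma adjusted p = 5.5e-08). Slc24a3 (chr2:145167754-145642166, plus strand) made up 99.8% of its family's RPKM in pillar cells, against 93.7% in Deiters' cells.

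The remaining calcium exchangers were below 1 RPKM. Slc8a3 (NCX3) had 106, 90 and 102 reads in pillar libraries and 16, 12 and 14 reads in Deiters' libraries, and Slc8a2 (NCX2) had 55, 51 and 34 reads in pillar libraries and 11, 9 and 7 reads in Deiters' libraries. Both were called higher in pillar cells, at log2 differences of 2.18 ± 0.13 and 1.56 ± 0.19 (limma adjusted p = 1.3e-05 and 0.00034). Slc24a2, a potassium-dependent exchanger of neurons and cones, was called higher in Deiters' cells with 10 to 18 reads per pillar library and 56 to 79 reads per Deiters' library. Slc24a1 was listed at 0 in all libraries, and Slc8a1, Slc24a4 and Slc24a5 had means of at most 0.073 RPKM in either cell type and were not tested.

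Phosphate carriers were led by Slc20a1 (PiT-1), a sodium-phosphate cotransporter found in most cells. It had 45.7, 46.9 and 44.9 RPKM in pillar libraries and 14.0, 13.8 and 14.8 RPKM in Deiters' libraries. The mean was 3.23-fold higher in pillar cells without overlap, a log2 difference of 1.68 ± 0.04 (SE, n = 3 each; limma adjusted p = 2.9e-07). Its partner in the family, Slc20a2 (PiT-2), had means of 8.22 and 7.52 RPKM in pillar and Deiters' cells and did not pass the p threshold at 0.13 ± 0.05 (limma adjusted p = 0.06).

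Slc34a2 (NaPi-IIb), the phosphate cotransporter of gut and lung, had 2.49, 2.16 and 2.36 RPKM in pillar libraries and 0.389, 0.466 and 0.524 RPKM in Deiters' libraries. The cell types did not overlap, and the mean was 5.08-fold higher in pillar cells (log2 difference 2.13 ± 0.13, SE, n = 3 each; limma adjusted p = 1.3e-05). The kidney forms were low: Slc34a1 was listed at 0 and Slc34a3 had 3 to 16 reads per library and did not pass the p threshold.

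Sulfate and carboxylate carriers of the Slc13 family were low, and 1 of its 3 tested genes was called, beside 28.7% of all genes tested. Slc13a4, a sodium-sulfate cotransporter, led with 1.14, 0.821 and 1.38 RPKM in pillar libraries and 0.717, 0.607 and 0.770 RPKM in Deiters' libraries, and its log2 difference of 0.58 ± 0.20 did not pass (limma adjusted p = 0.033). Slc13a2, a carrier of citrate and succinate, was listed at 0 in pillar libraries and had 8, 8 and 10 reads in Deiters' libraries, and it was called higher in Deiters' cells. Slc13a5, a citrate carrier, had 11 to 12 reads per pillar library and 1 to 5 reads per Deiters' library and passed the p threshold under 2-fold on the log scale used. Slc13a1 and Slc13a3 had at most 8 reads in a library and were not tested.

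**Figure D5:**
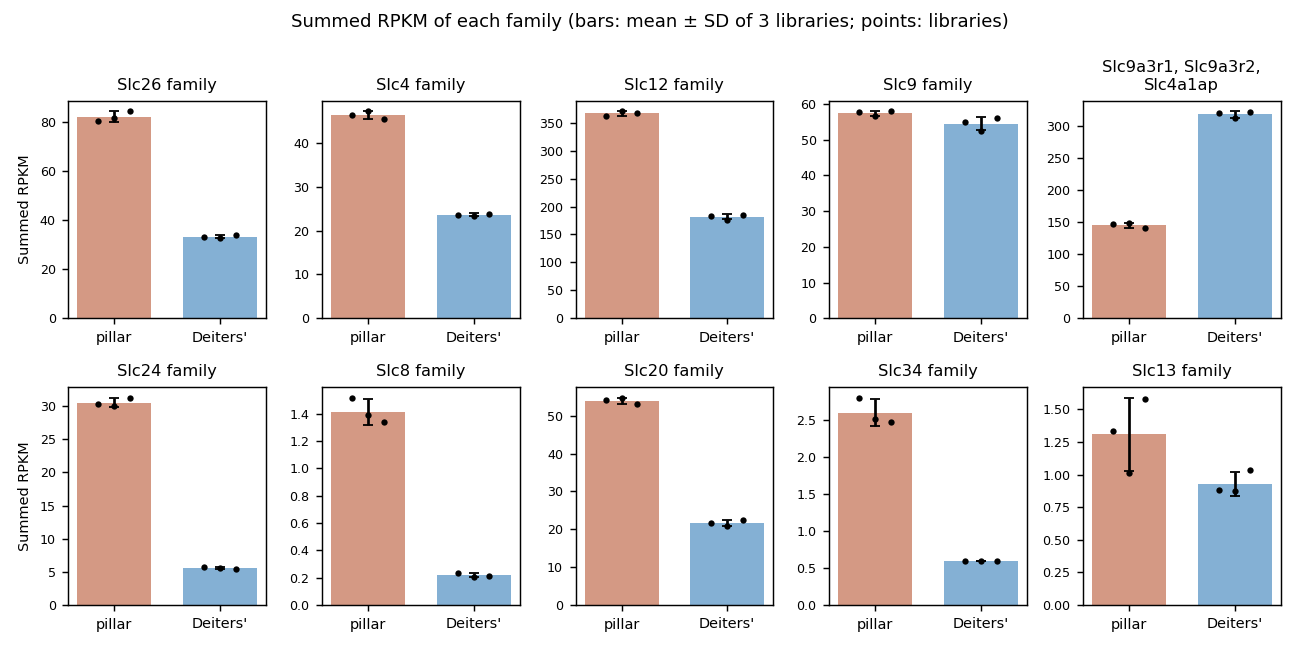
Summed RPKM of each family in pillar cells (left bar) and Deiters' cells (right bar), as the mean of 3 libraries with its SD and the libraries as points; each panel has its own axis from 0. The Slc12 sum is 367 RPKM in pillar cells against 182 RPKM in Deiters' cells, the Slc9 sums are 57.4 and 54.5 RPKM, and the binding proteins, led by Slc9a3r1, are the panel with the taller Deiters' bar.

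The 17 genes that were not tested comprise 8 that were listed at 0 in every library and 9 with a trace of signal. Of the 21 genes called, 12 averaged more than 1 RPKM in at least 1 cell type and 9 did not, 4 of these on the pillar side and 5 on the Deiters' side. For these low genes the fitted difference depends on the constant added before the logarithm, and none is a bound. With 1 RPKM added in place of 0.1, 9 of the 44 genes were called, 7 on the pillar side and 2 on the Deiters' side. Restricted to genes with a mean above 1 RPKM, 12 of 30 were called, 9 on the pillar side and 3 on the Deiters' side, beside 2796 of 12285 genes in the whole table.

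The labelled cell types were checked against lists of markers. Of 10 supporting cell genes all were tested, and 4 were called higher in pillar cells while 2 were higher in Deiters' cells. The ratio of their mean RPKM (pillar over Deiters') ran from 0.167 to 38.5, with a median log2 difference of -0.30. The connexin genes Gjb2 and Gjb6, which were not called, averaged 774 and 713 RPKM in pillar cells against 1152 and 1386 RPKM in Deiters' cells. Of 6 pillar cell markers S100b and S100a6 were called higher in pillar cells (log2 differences 1.37 ± 0.05 and 3.93 ± 0.09), while Ngfr stayed below 0.13 RPKM in all libraries and Npy was listed at 0 in pillar libraries and called higher in Deiters' cells. Of 6 Deiters' cell markers Lgr5 and Cryab were called higher in Deiters' cells (-1.64 ± 0.08 and -1.12 ± 0.03), and Hes5 was at or near 0 in both. The other 3 leaned to pillar cells without being called, Prox1 at 0.94 ± 0.19, Fgfr3 at 0.70 ± 0.04 and Kcnj10 at 0.42 ± 0.05 (limma adjusted p = 0.0039, 1.8e-05 and 0.00021), so that the median of the 5 tested was 0.42. Prox1 and Fgfr3 are on the list of pillar cell markers too. RNA of genes known as markers of further cells was found too. Of 8 leukocyte markers 5 were called higher in pillar cells, with Cd79a, known from B cells, at 2.27 ± 0.07. Another 2 were called higher in Deiters' cells, among them Prg2, known from eosinophils, at 66.4 to 68.6 RPKM in Deiters' libraries. The paper speculates that Prg2 is among genes tied to what sets pillar and Deiters' cells apart in function and form. Of 4 melanocyte markers 2 were called higher in Deiters' cells, and of 6 markers of neurons and glia 1 was called in each direction. Whether such cells were present, and their part in the values of the transporter genes, was not tested.

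Exons of 16 of the 61 genes overlap those of another gene, and since the library kit does not mark the strand, reads in a shared stretch cannot be told apart. The stretch is 13.7% of the exon length in Slc4a2, shared with Fastk, and 26.2% in Slc13a2, shared with Slc13a2os, which was listed at 0. In Slc26a4, Slc26a5, Slc12a7, Slc9a3r1 and Slc24a3 no exon overlap was found.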

How the data were processed

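The authors used CLC Genomics Workbench to map the read pairs to the mouse genome (mm10, GRCm38), and the deposited unit is RPKM, which divides a gene's reads by the length of its transcript and by all reads that mapped in the lane. The annotation release is not given in the sources used here. The values are not counts, so no count test was run.

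Both lanes of a library were averaged. Genes that averaged more than 0.1 RPKM in at least 1 cell type were compared as log2(RPKM + 0.1) with limma 3.58.1 in R 4.3.3 (eBayes with a trend, Benjamini-Hochberg adjustment over 17188 genes), and called when the adjusted p was 0.01 or lower and the difference 2-fold or more. The fit was tried on simulated data with independent noise in each library. That noise had no component shared between lanes or libraries, so the trial does not bear on p-values where such a component is present. Folds are ratios of mean RPKM. Reads were worked out with exon lengths of GENCODE M21, whole within 0.01 in 71.9% of 20010 features, and are given only for the 37 transporter genes where they were whole. Both cell types were collected from each animal, and which libraries share mice is not given in the sources used here.

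The genes and the lists of markers and partners were chosen with earlier results of these data known. Full statistics were given for genes tied to hearing, called genes above 1 RPKM and the 3 highest of each cell type. Of each list, up to 4 called genes with the smallest p were named, and others after their values were seen. A few genes that the rules take in are counted but not reported here by name.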

Additional observations from a re-analysis of the deposited data

How the results depend on the processing

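The alternatives were another pseudocount, other filters, 1 lane or lane set, other scalings, no variance trend, a replicate block and leaving out each library. The lane sets were chosen after seeing the data. With a pseudocount of 1 RPKM, 1779 of 17188 genes and 9 of 44 transporter genes were called (7 higher in pillar cells, 2 in Deiters' cells), a setting that shrinks the differences of low genes by construction. With a filter at a mean above 1 RPKM, which tests fewer genes, the counts were 2796 of 12285 and 12 of 30 (3 higher in Deiters' cells). In lane 2 alone 5 of 43 transporter genes were called higher in Deiters' cells, beside 2111 of 17209 genes in all, and the cause was not tested. With the library number as a replicate block 4703 of 17188 genes and 20 of 44 transporter genes were called, and Slc26a6 was lost (limma adjusted p = 0.011). Equal numbers gave correlations of -0.286, 0.38 and 0.318 between the libraries' deviations, and pillar library 1 correlated best with Deiters' library 3. Positive correlations joined libraries that lay, as the mean of their lanes, on the same side of the first lane component, and negative ones joined opposite sides. The correlations therefore cannot tell which libraries share mice. Which libraries share mice is not given, and the libraries were fitted as unpaired. Leaving out 1 library gave 4631 to 4862 genes (17174 to 17202 tested) and 19 to 21 transporter genes (44 or 45 tested). Among the genes lost were Slc26a6 without Deiters' library 2 (limma adjusted p = 0.012) and Slc4a3 without Deiters' library 1 or 2 (log2 difference -1.34 and -1.28). Quantile normalization lost Slc26a7 and Slc4a9 and gained Slc13a5 at 1.00. Among genes given by name, the sign turned in 2 near 0 that no setting called: Slc26a2 (-0.123 to 0.053 with 1 library left out) and Slc4a1 (-0.145 to 0.004 with 1 library left out, 0.016 in lane set 1). Lanes repeat the same RNA, so depth and 3 libraries limit calls in genes of few reads.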
